A study of Mus musculus with 6 samples.

Results

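The axon guidance ligands and receptors examined here are 71 of the 23235 genes measured in primary mouse neuronal cultures. They were chosen by gene symbol, with no measured value in the rule: semaphorins of classes 3 to 7, plexins, neuropilins, ephrins, Eph receptors, Slit and Robo genes, netrins, netrin-G genes, Dcc and Unc5 genes. Of these, 37 encode ligands and 34 encode receptors.

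Guidance cues steer growing axons by attraction or repulsion and go on to act in synapse formation in older neurons. Secreted class 3 semaphorins signal through a neuropilin bound to a class A plexin, except that Sema3e binds Plxnd1 directly, and the membrane-bound class 4 to 7 semaphorins bind plexins. Netrin attracts axons through Dcc and repels them through Unc5 receptors, and Slit proteins repel through Robo receptors. Ephrins are membrane-bound ligands of the Eph receptor tyrosine kinases, so that this system acts at cell contacts.

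RNA sequencing covered 6 libraries from mixed cortical and hippocampal cultures of mouse embryos, with 2 libraries for every group (control, HDAC2 shRNAs and Sp3 shRNAs). All groups came from embryonic day 15, grew for 17 days, received 1 uM cytosine arabinoside (AraC, which blocks dividing cells) on day 5 in vitro, and were transduced on day 12 with lentivirus expressing short hairpin RNA (shRNA), so that control cultures carried virus too. HDAC2 is a histone deacetylase found in corepressor complexes and Sp3 is a zinc finger transcription factor that recognizes GC boxes. The experiment was set up to ask whether HDAC2 and Sp3 act together on a set of genes. The sources used here do not give the strain, the hairpins or the content of the control virus.

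The authors' deposited tables hold 1 value per group in FPKM, fragments per kilobase of transcript scaled to library size, so no spread between libraries can be shown. Whether the libraries of 1 group are separate cultures is not stated, and p-values may then measure technical spread only. Changes are given as log2 fold changes over control, relative to the median gene (centred) and ± the standard error implied by the authors' test statistic. Without centring, the median gene stood at 0.32 in HDAC2 knockdown and at -0.13 in Sp3 knockdown. A gene is said to rise, fall or change only where the authors' deposited table called it (q under 0.05) and the centred value passed the same threshold in the same direction (adjusted p under 0.05, Benjamini-Hochberg over all tested genes). Both comparisons share the control libraries.

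The targeted genes were lower in the groups named for them: Hdac2 went from 49.4 FPKM to 12.3 in HDAC2 knockdown, and Sp3 from 15.5 FPKM to 5.82 in Sp3 knockdown. Sp3 also rose to 26.7 FPKM in HDAC2 knockdown (0.47 ± 0.089), and Hdac2 stood at 38.8 FPKM in Sp3 knockdown (-0.22 ± 0.11), lower in the authors' deposited table (q = 0.00598). Neuronal markers were present, with a sum over 11 genes of 1108 FPKM in control, 1197 in HDAC2 knockdown and 1446 in Sp3 knockdown. Of these 11 markers, 0 changed in HDAC2 knockdown, where 1, Gad2, had a centred p under 0.05 before adjustment. Gad2 was lower there relative to the median gene (-0.80 ± 0.24, adjusted p = 0.00645) but was not called in the authors' deposited table. In Sp3 knockdown 6 of the 11 rose, Gad2 among them, and 0 fell. Glial markers moved too. The sum over 10 astrocyte markers was 621 FPKM in control, 1796 in HDAC2 knockdown and 536 in Sp3 knockdown, and that over 12 oligodendrocyte lineage markers was 227, 443 and 131 FPKM. In HDAC2 knockdown 6 of 9 tested astrocyte and 8 of 12 oligodendrocyte markers rose and 0 fell. In Sp3 knockdown 5 of 10 and 8 of 10 fell and 0 rose, as did 6 of 8 tested markers of dividing progenitors. Microglial markers were near 0 in all groups, with a sum of 2.04 FPKM in control, and 2 of the 8 were at 0 there. Among 11 endothelial, pericyte and fibroblast markers, 9 were under 1 FPKM in control. Their sum was 30.2 FPKM in control, 44.4 in HDAC2 knockdown and 53.5 in Sp3 knockdown, of which Dcn, a matrix proteoglycan gene, made up 26.6, 38.4 and 49.9. Of 4 tested, 2 rose and 0 fell in HDAC2 knockdown, Kdr from 0.551 to 1.46 FPKM and Rgs5 from 0.416 to 1.74 FPKM. In Sp3 knockdown 1 rose (Dcn) and 1 fell (Pdgfrb). In whole cultures, a different share of a cell type and a different amount of RNA per cell cannot be told apart, and the part of these shifts in the results below was not tested.

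Guidance genes were well represented in control cultures. Of the 71 genes, 60 stood at 1 FPKM or more in control and 33 at 10 FPKM or more, with a median of 9.21 FPKM against 2.28 over all genes. The highest levels were those of the semaphorin co-receptor Nrp1 (55.6 FPKM), Slit1 (51.1), Plxna1 (49.7), Sema6b (48.5) and Epha4 (43.3). Next came Ntng2, a membrane-anchored relative of the netrins, at 41.5 FPKM, and Efnb3, a transmembrane ephrin, at 38.2. The leading members of the other families were Sema3a (8.86 FPKM), Sema4b (18.3), Efna3 (20.9), Ephb6 (22.1), Robo1 (31.3), Ntn1 (4.27) and Unc5d (14.9). The secreted netrins were below their receptors Dcc (9.97 FPKM) and Unc5d. Under 1 FPKM in control were 11 genes, among them Robo3, which acts in midline crossing, and Robo4, known from endothelium, at 0.314 and 0.0764 FPKM. Ntn5 was listed at 0 in control, 0.447 FPKM in HDAC2 knockdown and 0.0547 in Sp3 knockdown.

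**Figure D1:**
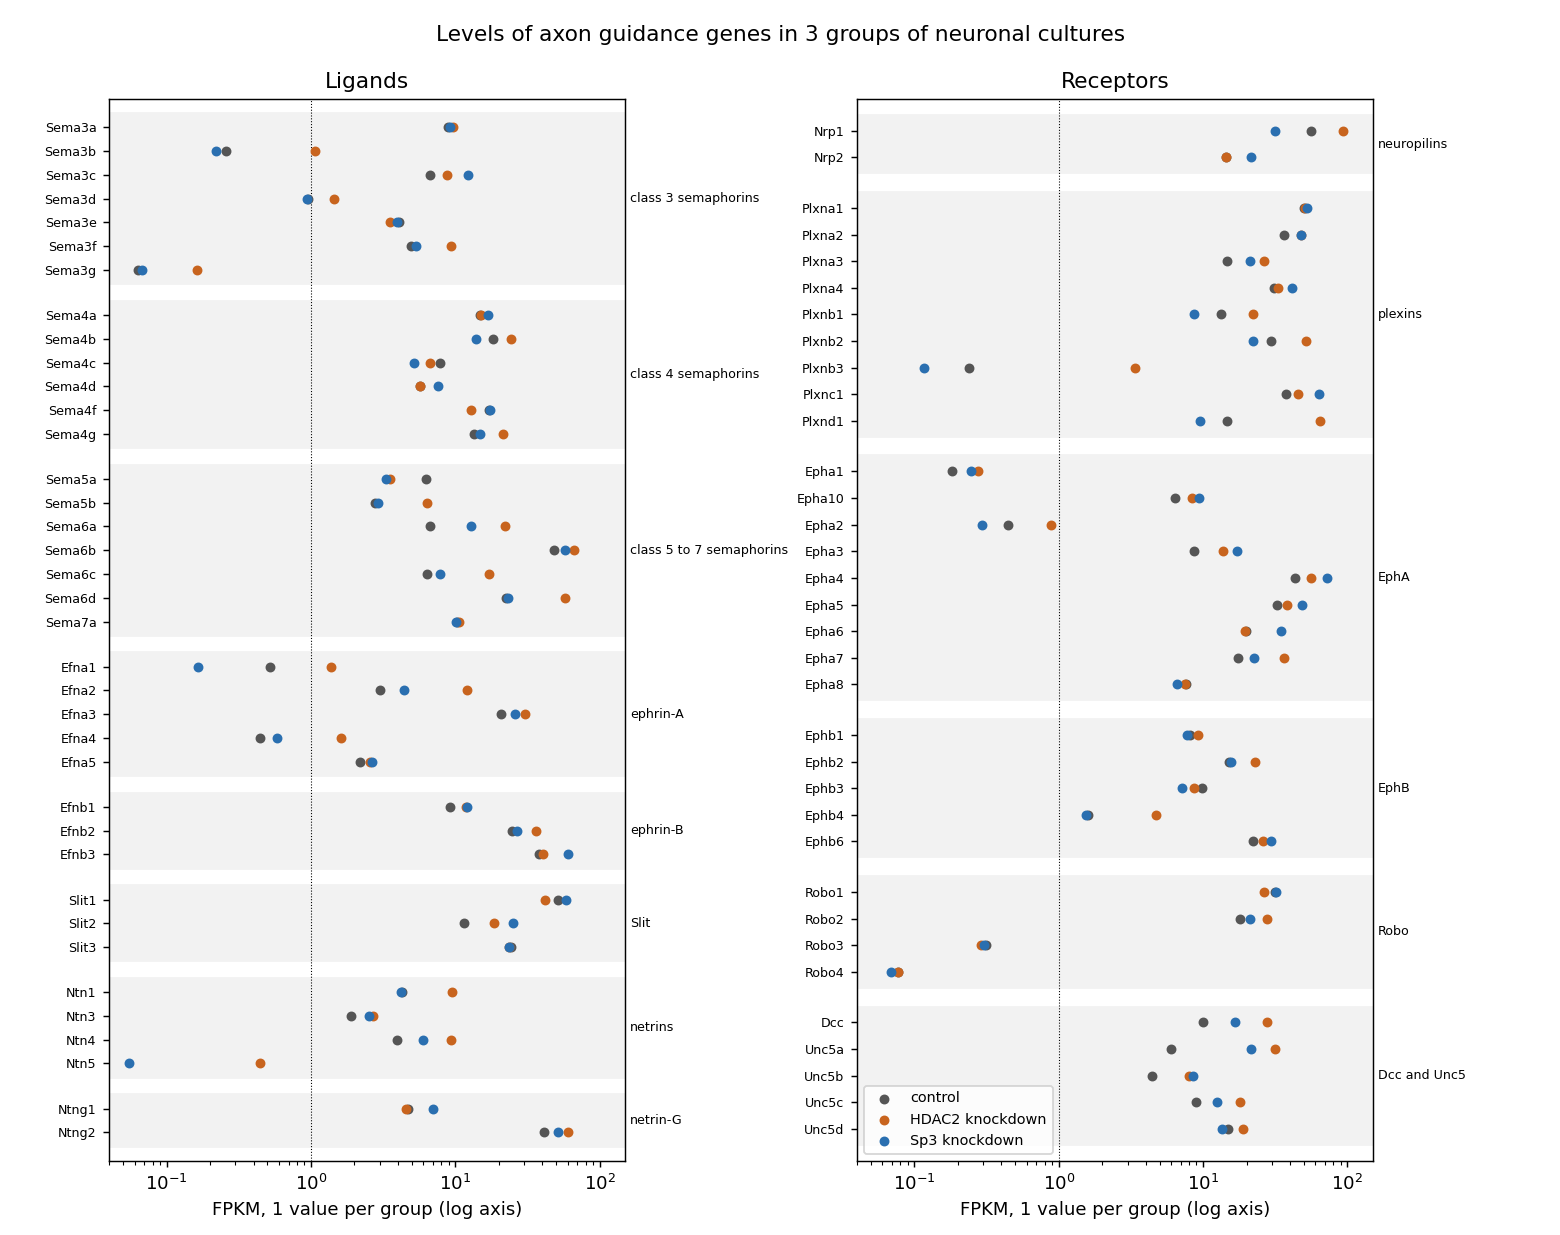
Each row is a gene and each point the authors' FPKM value of a group on a log axis, with ligands on the left and receptors on the right; a value of 0 (Ntn5 in control) is not drawn and the dotted line marks 1 FPKM. Most genes lie above 1 FPKM in all groups; Plxnb3 lies far to the right in HDAC2 knockdown, at 3.37 FPKM against 0.238 in control.

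Of the 71 genes, 58 were tested in both tables. Another 3 (Plxnb3, Efna1 and Efna4) were tested only for HDAC2 knockdown, where their level was highest, and 3 (Sema6d, Ephb6 and Ntn3) only for Sp3 knockdown, because the authors' test failed for HDAC2. The remaining 7 (Sema3b, Sema3g, Epha1, Epha2, Robo3, Robo4 and Ntn5) were tested in neither. Sema3b measured 0.26 FPKM in control, 1.07 in HDAC2 knockdown and 0.221 in Sp3 knockdown. The levels of Sema6d, a plexin ligand, were 22.4 FPKM in control and 57.4 in HDAC2 knockdown, a difference without a test.

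In HDAC2 knockdown the authors' deposited table called 22 of 61 tested guidance genes higher and 1 lower, beside 24.6% and 3.6% of all tested genes. Relative to the median gene as well, 12 rose (19.7%) and 1 fell (1.64%), beside 10.2% and 3.58% of all tested genes. The centred median of the guidance genes was 0.14, with quartiles of -0.28 and 0.59, and that of all tested genes was -0.0044. In Sp3 knockdown the authors' deposited table called 24 of 61 higher and 8 lower, beside 13.2% and 26.1% of all tested genes. All 32 were also called relative to the median gene (39.3% higher and 13.1% lower), beside 13.2% and 17.5% of all tested genes. By the centred criterion, whatever the deposited call, 34 were higher, beside 2736 of 13619 tested genes. Of these 34, 10 were higher by that criterion only. The centred median of the guidance genes was 0.38, with quartiles of 0.10 and 0.68, and 51 of the 61 values lay above 0. Over the 58 genes tested in both tables, 11 rose and 1 fell in HDAC2 knockdown, and 23 rose and 8 fell in Sp3 knockdown. The standard error of a guidance gene had a median of 0.27 in the HDAC2 comparison and 0.11 in the Sp3 comparison, so smaller changes could be called in the latter.

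**Figure D2:**
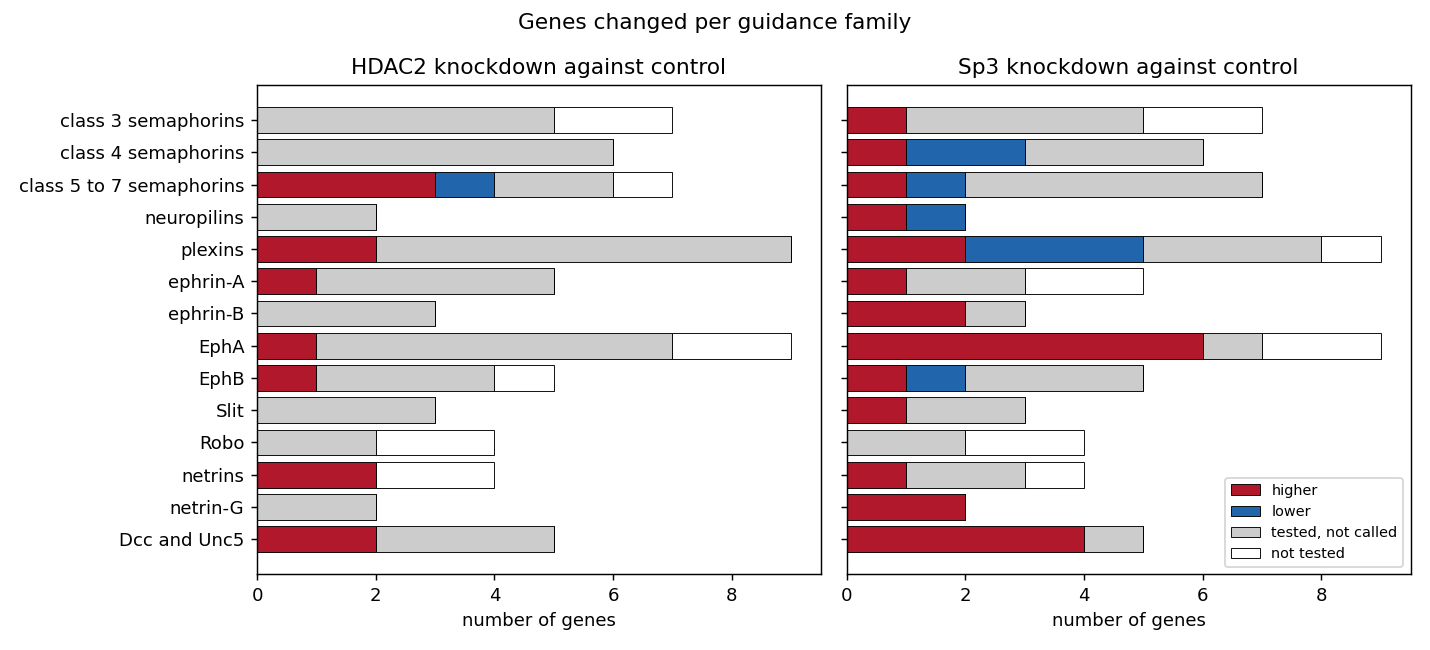
Bars give the number of genes in each guidance family that rose, fell, were tested without a call or were not tested, in HDAC2 knockdown on the left and Sp3 knockdown on the right. The longest bar of higher genes is that of EphA in Sp3 knockdown, with 6 of 9 genes, and the lower genes of Sp3 knockdown are 3 plexins, 2 class 4 semaphorins and 1 each of neuropilins, EphB and class 5 to 7 semaphorins.

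Both roles were represented among the changes. Over all tested genes 10.2% rose and 3.58% fell in HDAC2 knockdown, and 13.2% rose and 17.5% fell in Sp3 knockdown. Of 32 tested ligands, 6 rose and 1 fell in HDAC2 knockdown and 10 rose and 3 fell in Sp3 knockdown. Of 29 tested receptors, 6 rose and 0 fell in HDAC2 knockdown, where 9 of all 29 had a centred p under 0.05 before adjustment, and 14 rose and 5 fell in Sp3 knockdown.

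The upstream sequences of 4 genes are shown because they stand for the patterns met below and because Sp3 is known to bind the GC box. Unc5a rose in both knockdowns, Sema5a fell in both, Plxnd1 went opposite ways, and Epha6 rose in Sp3 knockdown and differed between the knockdowns. These genes were picked after their values were seen. Each line gives the 250 bases before the annotated start, 5′ to 3′ on the strand of the gene, from RefSeq (GRCm38.p6). Capitals mark GGGCGG or its reverse complement CCGCCC, and overlapping matches run together.
Unc5a (chr13:54949161-54949410, plus strand): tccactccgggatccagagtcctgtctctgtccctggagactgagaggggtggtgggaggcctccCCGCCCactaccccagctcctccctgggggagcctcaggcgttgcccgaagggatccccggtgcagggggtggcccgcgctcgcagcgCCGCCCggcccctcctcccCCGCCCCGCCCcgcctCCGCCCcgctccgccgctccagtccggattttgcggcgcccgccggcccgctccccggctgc
Sema5a (chr15:32244563-32244812, plus strand): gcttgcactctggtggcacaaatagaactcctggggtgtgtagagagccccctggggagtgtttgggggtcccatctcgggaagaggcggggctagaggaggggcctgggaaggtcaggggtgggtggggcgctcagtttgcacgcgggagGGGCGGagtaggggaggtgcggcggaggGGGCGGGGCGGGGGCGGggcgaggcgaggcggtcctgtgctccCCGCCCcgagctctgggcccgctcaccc
Plxnd1 (chr6:115995006-115995255, minus strand): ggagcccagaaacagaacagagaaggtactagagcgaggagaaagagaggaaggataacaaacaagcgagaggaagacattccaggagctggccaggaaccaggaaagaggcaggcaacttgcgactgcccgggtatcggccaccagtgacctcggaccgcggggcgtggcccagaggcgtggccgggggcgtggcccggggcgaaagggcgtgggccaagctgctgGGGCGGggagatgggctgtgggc
Epha6 (chr16:60605532-60605781, minus strand): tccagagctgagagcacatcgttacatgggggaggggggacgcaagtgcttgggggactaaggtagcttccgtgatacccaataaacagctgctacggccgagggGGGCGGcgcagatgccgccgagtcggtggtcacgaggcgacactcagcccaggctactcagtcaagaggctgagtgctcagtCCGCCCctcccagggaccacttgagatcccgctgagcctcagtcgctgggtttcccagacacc
The Unc5a and Sema5a sequences each held 5 matches, Epha6 held 2 and Plxnd1 held 1, with 76.8%, 72%, 62.8% and 64.8% G or C. In Unc5a, 4 of the matches began within 97 bases of the start, and the match in Plxnd1 began 23 bases before it.

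GC boxes were counted over all guidance genes. RefSeq promoters (250 bases before and 50 after the start) were found for 61 of the 71 genes. Dcc, Efnb3, Ntn1, Plxna1, Plxna4, Sema3b, Sema3f, Sema6a, Slit1 and Unc5d had no entry. A gene was counted if any of its promoters held GGGCGG on either strand. This was so for 45 of these 61 genes (73.8%). The share was 69.6% of 9409 genes tested in Sp3 knockdown and 38.2% of all 27025 genes with a promoter. Among guidance genes the match was present in 17 of 21 that rose, 8 of 8 that fell and 15 of 23 without a call in Sp3 knockdown. Over all tested genes the same shares were 71.3%, 73.8% and 68.3%. A match is a run of letters and not evidence of binding.

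Of the 5 Dcc and Unc5 genes, Unc5a and Dcc rose in both knockdowns and Unc5b and Unc5c in Sp3 knockdown. Unc5a (chromosome 13, 55050793 to 55122746 in mm9), a receptor for netrin repulsion, measured 5.96 FPKM in control, 31.3 in HDAC2 knockdown and 21.6 in Sp3 knockdown. Its centred log2 fold changes were 2.08 ± 0.28 and 1.99 ± 0.11. The overlapping locus of Hk3, a hexokinase gene, was at 0.107 FPKM in control. Dcc, the receptor for netrin attraction, measured 9.97 FPKM in control, 27.6 in HDAC2 knockdown and 16.6 in Sp3 knockdown, both above control (1.15 ± 0.33 and 0.86 ± 0.10). Unc5b and Unc5c rose in Sp3 knockdown, from 4.42 to 8.48 FPKM (1.07 ± 0.11) and from 8.98 to 12.5 FPKM (0.61 ± 0.10). In HDAC2 knockdown Unc5b stood at 7.93 FPKM and Unc5c at 18, called higher in the authors' deposited table but not relative to the median gene (adjusted p = 0.14 and 0.0691). Unc5d measured 14.9 FPKM in control, 18.9 in HDAC2 knockdown and 13.4 in Sp3 knockdown and was called in neither. For Unc5d the 95% interval of the centred change ran from -0.61 to 0.67 in HDAC2 knockdown and from -0.27 to 0.23 in Sp3 knockdown. The family thus had 2 of 5 genes higher in HDAC2 and 4 of 5 in Sp3 knockdown, beside 10.2% and 13.2% of all tested genes. In each, 0 fell, beside 3.58% and 17.5% of all tested genes. Before adjustment, 4 of the 5 had a centred p under 0.05 in each comparison.

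The secreted netrins were low in control, at 4.27 FPKM or less. Of 2 tested in HDAC2 knockdown 2 rose, beside 10.2% of all tested genes. Of 3 tested in Sp3 knockdown 1 rose, beside 13.2%. Ntn1, the classical axon attractant, rose from 4.27 to 9.54 FPKM in HDAC2 knockdown (0.84 ± 0.24) and stood at 4.21 FPKM in Sp3 knockdown (0.11 ± 0.13). Ntn4 rose in both, from 3.95 FPKM to 9.34 in HDAC2 knockdown (0.92 ± 0.26) and 5.97 in Sp3 knockdown (0.73 ± 0.19). Its locus overlaps that of Gm8580, which measured 43.8 FPKM in control, 56.6 in HDAC2 knockdown and 29.3 in Sp3 knockdown. Since the strand setting is not stated, reads of overlapping genes may not have been separated. Ntn3, whose locus overlaps the more abundant Tbc1d24, measured 1.88 FPKM in control, 2.7 in HDAC2 knockdown and 2.54 in Sp3 knockdown. The netrin-G genes encode membrane-anchored ligands of synaptic NGL proteins rather than of Dcc. Both rose in Sp3 knockdown, beside 13.2% of all tested genes. Ntng1 went from 4.7 to 7.05 FPKM (0.72 ± 0.12) and Ntng2 from 41.5 to 51.6 FPKM (0.45 ± 0.094). In HDAC2 knockdown Ntng1 measured 4.54 and Ntng2 60.0 FPKM, and neither was called. The locus of Ntng2 overlaps that of 6530402F18Rik, at 12.8 FPKM in control, 17.1 in HDAC2 knockdown and 16.2 in Sp3 knockdown. Reads of these overlapping genes may not have been separated either.

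Of 6 tested class 5 to 7 semaphorins, 3 rose and 1 fell in HDAC2 knockdown, beside 10.2% and 3.58% of all tested genes. Sema6a, a transmembrane ligand of class A plexins, measured 6.66 FPKM in control, 22 in HDAC2 knockdown (1.41 ± 0.30) and 12.8 in Sp3 knockdown (1.07 ± 0.098), so that both knockdown groups were above control. Sema6c rose from 6.38 to 17.2 FPKM in HDAC2 knockdown (1.12 ± 0.26), and Sema5b from 2.79 to 6.42 FPKM (0.88 ± 0.24). In Sp3 knockdown Sema6c stood at 7.85 FPKM and Sema5b at 2.92, and neither was called in the authors' deposited table (q = 0.121 and 0.718). Sema5a, which binds class A plexins and proteoglycans, was the one guidance gene that fell in both. It measured 6.3 FPKM in control, 3.54 in HDAC2 knockdown (-1.15 ± 0.23) and 3.32 in Sp3 knockdown (-0.79 ± 0.11). The authors' deposited table gave it q = 0.00214 and 1.26e-14. The most abundant class member, Sema6b, measured 48.5 FPKM in control, 66.4 in HDAC2 knockdown and 57.3 in Sp3 knockdown and was not called in the authors' deposited table (q = 0.264 and 0.1). Sema7a, the membrane-anchored ligand of Plxnc1, lay between 10.1 and 10.6 FPKM in all groups and was called in neither.

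Of 11 tested class 3 and 4 semaphorins, 2 rose and 2 fell in Sp3 knockdown, beside 13.2% and 17.5% of all tested genes. Sema3c, a secreted ligand of neuropilins, rose from 6.71 to 12.2 FPKM (0.99 ± 0.11), and stood at 8.77 FPKM in HDAC2 knockdown (0.069 ± 0.24). Sema4d, a ligand of Plxnb1, rose from 5.74 to 7.61 FPKM (0.54 ± 0.13). Sema4c and Sema4b fell, from 7.9 to 5.17 FPKM (-0.48 ± 0.13) and from 18.3 to 14 FPKM (-0.26 ± 0.11). The repulsive cue Sema3a lay between 8.86 and 9.69 FPKM in all groups. In HDAC2 knockdown 0 of the 11 tested class 3 and 4 genes changed, and 5 of them had a centred p under 0.05 before adjustment. The authors' deposited table called Sema3f (4.94 FPKM in control and 9.27 in HDAC2 knockdown) and Sema4g (13.5 and 21.5) higher, and neither was called after centring. Sema4a and Sema4f were called lower in HDAC2 knockdown only relative to the median gene, at -0.31 ± 0.099 and -0.73 ± 0.25. By that criterion alone Sema4a was called higher in Sp3 knockdown, at 0.31 ± 0.084.

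Of 9 plexins tested in HDAC2 knockdown 2 rose and 0 fell, beside 10.2% and 3.58% of all tested genes. Of these 2, Plxnb3 was tested only for HDAC2 knockdown, where its level was highest. Of 8 plexins tested in Sp3 knockdown 2 rose and 3 fell, beside 13.2% and 17.5% of all tested genes. Plxnd1 (chromosome 6, 115904829 to 115945023 in mm9), the receptor of Sema3e, measured 14.7 FPKM in control, 64.6 in HDAC2 knockdown and 9.49 in Sp3 knockdown. It rose in HDAC2 knockdown (1.82 ± 0.44) and fell in Sp3 knockdown (-0.50 ± 0.11), with q = 1.28e-05 and 1.25e-07 in the authors' deposited table, and it was the 1 guidance gene that passed both criteria in opposite directions. Plxnb3 rose from 0.238 to 3.37 FPKM in HDAC2 knockdown (3.51 ± 0.42). Its control level was under 1 FPKM, and with a pseudocount of 1 FPKM the log2 fold change of Plxnb3 was 1.54, below those of Unc5a (1.94) and Plxnd1 (1.78). In Sp3 knockdown Plxnb3 was not tested, at 0.116 FPKM. The other class B plexins fell in Sp3 knockdown, Plxnb1 from 13.2 to 8.66 FPKM (-0.48 ± 0.11) and Plxnb2 from 29.3 to 22.2 FPKM (-0.27 ± 0.060). In HDAC2 knockdown Plxnb1 measured 22.3 FPKM (0.44 ± 0.31) and Plxnb2 51.3 FPKM (0.49 ± 0.31), both without a call relative to the median gene. The authors' deposited table called Plxnb2 higher in HDAC2 knockdown (q = 0.0292), which did not hold relative to the median gene. The fall of Plxnb2 in Sp3 knockdown (q = 3.25e-10 in the authors' deposited table) passed both criteria. Beside the rise of Plxnd1 and Plxnb3, glial marker sums were higher in HDAC2 knockdown, and beside the falls of class B plexins they were lower in Sp3 knockdown, as given above. Their part in these changes was not tested.

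Class A plexins and Plxnc1 were abundant. Plxnc1, the Sema7a receptor, rose in Sp3 knockdown from 37.5 to 63.4 FPKM (0.89 ± 0.16), and Plxna3 from 14.7 to 21.1 FPKM (0.66 ± 0.11). In HDAC2 knockdown Plxna3 stood at 26.3 FPKM. It was called higher there in the authors' deposited table (q = 0.036) but not relative to the median gene (0.53 ± 0.33). Plxna1 (49.7 FPKM in control), Plxna2 (36.2) and Plxna4 (31.2) were called in neither comparison. Their standard errors ran up to 0.54 in the HDAC2 comparison, beside a median of 0.27 over the tested guidance genes. The neuropilins, which bind class 3 semaphorins, moved apart in Sp3 knockdown. Nrp1 fell from 55.6 to 31.4 FPKM (-0.69 ± 0.19), whereas Nrp2 rose from 14.3 to 21.6 FPKM (0.72 ± 0.059). In HDAC2 knockdown Nrp1 measured 93.1 FPKM (0.43 ± 0.47) and Nrp2 14.3 (-0.32 ± 0.17), and neither was called.

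EphA receptors rose together in Sp3 knockdown, with a centred median of 0.70. Of 7 tested genes 6 were higher and 0 lower, beside 13.2% and 17.5% of all tested genes. Epha3 rose from 8.71 to 17.2 FPKM (1.11 ± 0.11), Epha6 from 19.7 to 34.7 FPKM (0.95 ± 0.10) and Epha4, the most abundant of them, from 43.3 to 72.4 FPKM (0.88 ± 0.20). Epha5 rose from 32.8 to 48.7 FPKM (0.70 ± 0.15), Epha10 from 6.41 to 9.34 FPKM (0.68 ± 0.11) and Epha7 from 17.4 to 22.5 FPKM (0.51 ± 0.087). Epha8, at 7.63 FPKM in control and 6.61 in Sp3 knockdown, was the tested exception (-0.074 ± 0.12). Neuronal marker genes rose in the same group, as given above, and the part of neuron share was not tested. In HDAC2 knockdown 1 of 7 tested EphA genes rose, beside 10.2% of all tested genes. It was Epha7, which went from 17.4 to 36.6 FPKM in HDAC2 knockdown (0.76 ± 0.15). Epha4 measured 56.4 FPKM there, Epha5 38.5 and Epha6 19.4, without a call. The authors' deposited table called Epha3 (13.7 FPKM) higher (q = 0.0256), which did not hold relative to the median gene. The locus of Epha6 overlaps that of Arl6, at 14.5 FPKM in control, 18.4 in HDAC2 knockdown and 14 in Sp3 knockdown. Their reads may not have been separated.

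EphB receptors showed no common direction. Of 4 tested in HDAC2 knockdown 1 rose and 0 fell, beside 10.2% and 3.58% of all tested genes. Of 5 tested in Sp3 knockdown 1 rose and 1 fell, beside 13.2% and 17.5% of all tested genes. Ephb4, best known from vessels, rose in HDAC2 knockdown from 1.59 to 4.7 FPKM (1.24 ± 0.29) and measured 1.55 FPKM in Sp3 knockdown. In Sp3 knockdown Ephb6, which lacks kinase activity, rose from 22.1 to 29.5 FPKM (0.55 ± 0.094) and Ephb3 fell from 9.9 to 7.13 FPKM (-0.34 ± 0.12). Ephb1 and Ephb2, which act in excitatory synapse formation, measured 8.05 and 15.2 FPKM in control, 9.22 and 22.9 in HDAC2 knockdown and 7.71 and 15.7 in Sp3 knockdown, without a call.

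Their ligands changed in a few members. In HDAC2 knockdown 1 of 5 tested ephrin-A and 0 of 3 ephrin-B genes rose, beside 10.2% of all tested genes. In Sp3 knockdown 1 of 3 tested ephrin-A and 2 of 3 ephrin-B genes rose, beside 13.2% of all tested genes. Efna2, a membrane-anchored ephrin, rose in HDAC2 knockdown from 3.01 to 12 FPKM (1.68 ± 0.29). It measured 4.39 FPKM in Sp3 knockdown, where the authors' deposited table gave q = 0.0503. Efna3 rose in Sp3 knockdown from 20.9 to 26 FPKM (0.45 ± 0.12) and measured 30.5 FPKM in HDAC2 knockdown without a call. Efna1 and Efna4, under 1 FPKM in control, stood at 1.38 and 1.61 FPKM in HDAC2 knockdown. The authors' deposited table called both higher, and neither was called relative to the median gene. Among transmembrane ephrins, Efnb3 rose from 38.2 to 60.7 FPKM (0.80 ± 0.11) and Efnb1 from 9.21 to 12.1 FPKM (0.53 ± 0.12) in Sp3 knockdown. Efnb2 measured 24.7 FPKM in control, 36.4 in HDAC2 knockdown and 26.8 in Sp3 knockdown, and 0 of the 3 changed in HDAC2 knockdown, with 0 at a centred p under 0.05 before adjustment.

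Of 3 tested Slit and 2 tested Robo genes, 1 Slit gene rose and 0 fell in Sp3 knockdown, beside 13.2% and 17.5% of all tested genes. In HDAC2 knockdown 0 of them changed, beside 10.2% higher and 3.58% lower over all tested genes. Slit2, a secreted repellent, rose in Sp3 knockdown from 11.6 to 25.3 FPKM (1.26 ± 0.10). It stood at 18.5 FPKM in HDAC2 knockdown, called higher in the authors' deposited table (q = 0.0424) but not relative to the median gene (0.36 ± 0.27). Slit1 measured 51.1 FPKM in control, 42.1 in HDAC2 knockdown and 58.1 in Sp3 knockdown, and Slit3 lay between 23.4 and 24.2 FPKM. Robo1 measured 31.3 FPKM in control, 26.6 in HDAC2 knockdown and 31.9 in Sp3 knockdown, and Robo2 measured 17.9, 27.8 and 21.2 FPKM. For Robo1 the 95% interval of the centred change ran from -1.15 to 0.053 in HDAC2 knockdown and from -0.11 to 0.43 in Sp3 knockdown.

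**Figure D3:**
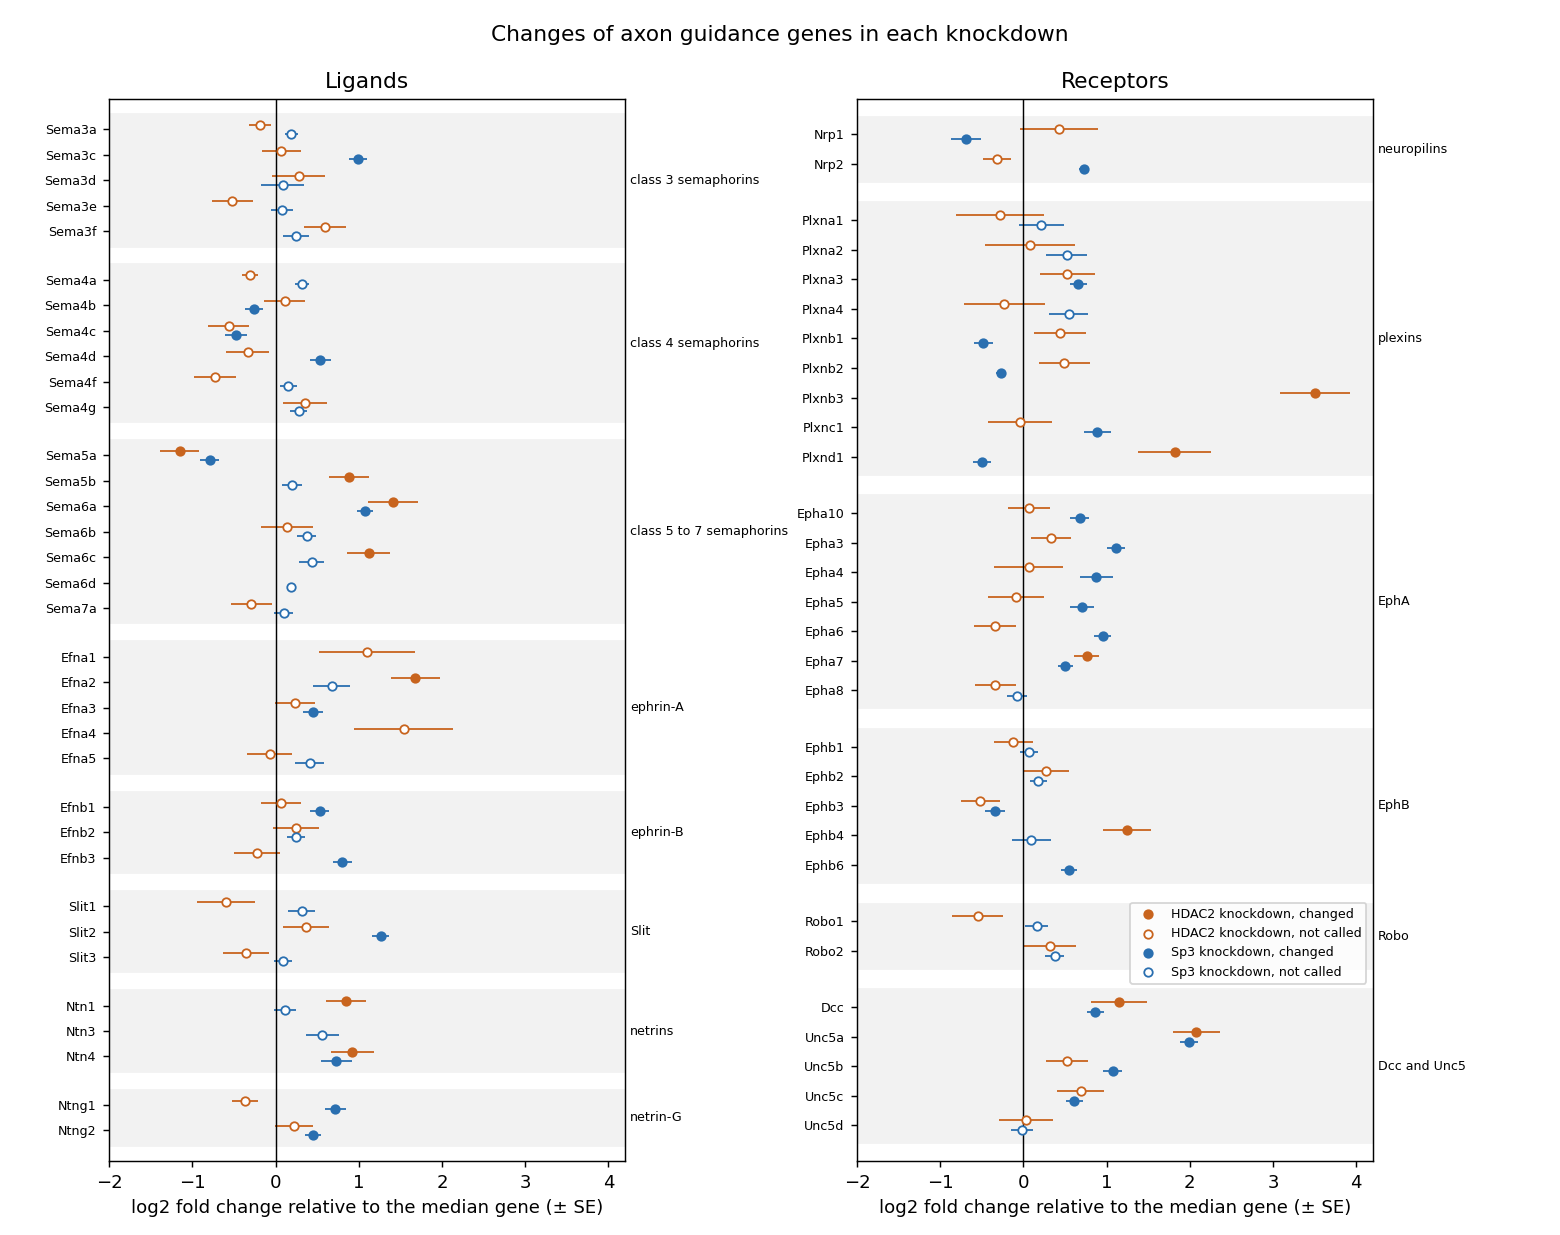
Points are log2 fold changes over control relative to the median gene, with bars of ± 1 standard error implied by the authors' statistic, for ligands on the left and receptors on the right; filled points passed both tests. Sp3 knockdown points of EphA genes sit right of 0 except Epha8 at -0.074, and Unc5a lies near 2 in both knockdowns.

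Changes in the knockdowns were compared directly by the difference of their centred values, in which the shared control cancels. Of 58 genes, 4 were higher in HDAC2 than in Sp3 knockdown and 10 were higher in Sp3 knockdown, beside 7.86% and 6.87% of 13277 genes tested. With and without centring alike, 4 and 3 passed, beside 7.86% and 2.16% of all genes. Plxnd1 differed most, by 2.32 ± 0.45, with a 95% interval from 1.44 to 3.2. The others higher in HDAC2 knockdown were Ephb4 (1.15 ± 0.37), Efna2 (1.01 ± 0.37) and Plxnb1 (0.92 ± 0.33). Epha6 (-1.29 ± 0.27), Ntng1 (-1.08 ± 0.20) and Nrp2 (-1.04 ± 0.18) were higher in Sp3 knockdown by both forms of the test. Sema3c, Sema4a, Sema4d, Sema4f, Efnb3, Epha3 and Slit2 differed only relative to the median gene. The difference for Unc5a was 0.088, with a 95% interval from -0.50 to 0.68. In all, 5 genes rose in both knockdowns (Sema6a, Epha7, Ntn4, Dcc and Unc5a) and 1 fell in both (Sema5a), of 58 tested in both, beside 3.14% and 2% of 13357 genes tested in both. These comparisons share the control group, so a low or high control value moves both the same way.

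**Figure D4:**
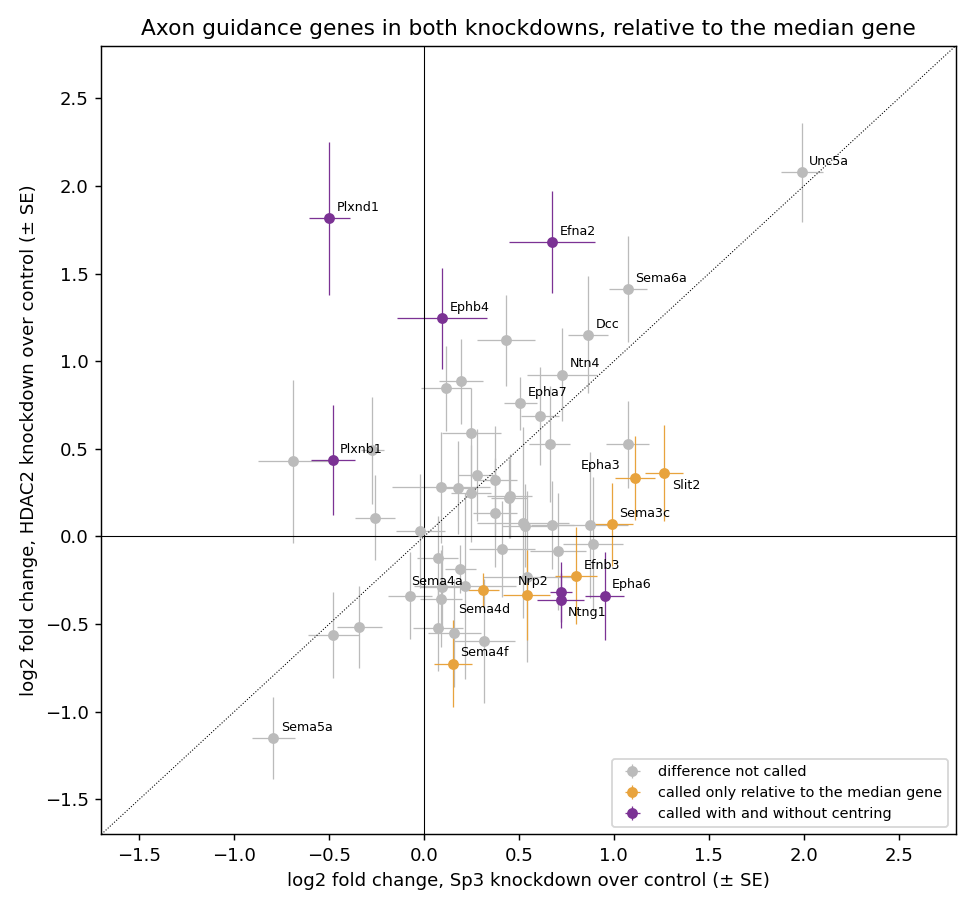
Each point is 1 of the 58 genes tested in both tables, with its centred log2 fold change in Sp3 knockdown on the horizontal and in HDAC2 knockdown on the vertical axis, ± standard error; the dotted line marks equal change and the control group is shared by both axes. Plxnd1 lies alone at the upper left, at 1.82 and -0.50, and Unc5a close to the line at the upper right.

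Other genes of the pathway changed in both directions. Of 57 tested signalling effectors downstream of guidance receptors, 4 rose and 4 fell in HDAC2 knockdown, and 12 rose and 14 fell in Sp3 knockdown, beside the shares of all genes given above. Their centred medians were 0.14 and 0.047. In HDAC2 knockdown the kinase gene Src (0.61 ± 0.070), Chn2 (0.78 ± 0.17), Mical1, an actin-oxidizing enzyme in plexin signalling (1.16 ± 0.28), and Rras (1.62 ± 0.54) rose. The GTPase gene Rac1 fell from 96.2 to 44 FPKM (-1.45 ± 0.26), and Grip1 (-0.66 ± 0.13), Dpysl4 (-1.15 ± 0.25) and the scaffold gene Sdcbp (-0.77 ± 0.17) fell too. In Sp3 knockdown the kinase genes Pak3 (0.60 ± 0.042) and Abl2 (0.43 ± 0.052), the Rac activator gene Tiam1 (0.53 ± 0.063) and the actin-binding gene Ablim1 (0.66 ± 0.081) rose. Cdc42, another GTPase gene, fell from 145 to 76.8 FPKM (-0.78 ± 0.073), as did Sdcbp (-0.95 ± 0.088), Pak2 (-0.82 ± 0.11) and Dock1 (-0.75 ± 0.11).

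Of 22 other guidance cues and receptors tested in HDAC2 knockdown, 1 rose and 0 fell, beside 10.2% and 3.58% of all tested genes. A centred p under 0.05 before adjustment was found for 3 of the 22. The one that rose was Ryk, a Wnt receptor gene (0.42 ± 0.099), which fell in Sp3 knockdown (-0.59 ± 0.086). In Sp3 knockdown 6 of 21 rose and 3 fell, beside 13.2% and 17.5% of all tested genes. Those that rose included Islr2 (1.01 ± 0.060), Flrt2, which binds Unc5 receptors (0.76 ± 0.10), Dscaml1 (0.75 ± 0.099) and Rgmb (0.72 ± 0.10). Boc, a co-receptor for Sonic hedgehog, fell (-0.38 ± 0.11), as did Rgma, a ligand of neogenin (-0.29 ± 0.11). The neogenin gene Neo1 measured 74.8 FPKM in control, 52.2 in HDAC2 knockdown and 96.9 in Sp3 knockdown. Neo1 was called lower in HDAC2 knockdown (-0.84 ± 0.28) and higher in Sp3 knockdown (0.51 ± 0.20) only relative to the median gene.

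Guidance genes occupy long loci, with a median of 57.5 kb against 18.8 kb over all genes, as the deposited mm9 loci give them. In Sp3 knockdown 23.7% of all tested genes with loci of at least 100 kb rose and 14% fell, and of those with shorter loci 11.1% rose and 18.2% fell. Of 31 guidance genes with such loci, 14 rose (45.2%) and 2 fell (6.45%), and of 30 tested genes with shorter loci 10 rose (33.3%) and 6 fell (20%). The median locus was 119 kb for guidance genes that rose in Sp3 knockdown, 32.5 kb for those that fell and 123 kb for those tested without a call. Loci of 13 guidance genes overlapped another row of the table. Without these 13, 17 of 49 tested genes rose (34.7%) and 7 fell (14.3%) in Sp3 knockdown, beside 13.2% and 17.5% of all tested genes. In HDAC2 knockdown 10 of 50 rose (20%) and 1 fell (2%), beside 10.2% and 3.58% of all tested genes.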

How the data were processed

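RNA sequencing of 6 libraries was aligned with TopHat and Bowtie to mouse build mm9 and tested with Cuffdiff, per the submitters' processing notes, which give no versions. No source used here gives the annotation or the strand setting. The authors deposited 1 table per knockdown, in which FPKM is 1 value per group, so depth per library is unknown and no replicate values exist. The p-values, q-values and test statistic (a score) are the authors' own, per the file headers. Read as a normal deviate, the statistic returned the HDAC2 table's p-values to within 2.72e-06. Its sign runs against the fold change. The authors' log2 fold change column, which marks folds against 0 by extreme entries, was not used for values.

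Fold changes were recomputed from FPKM. The standard error is the log2 fold change divided by the sign-reversed statistic (values over 5 treated as missing). Centred values subtract the median over tested genes of at least 1 FPKM in either group. The shifted statistic was given a normal two-sided p with Benjamini-Hochberg adjustment over all tested genes (scipy 1.17.1, statsmodels 0.14.6). It was checked on simulated data with few changed genes, their directions drawn at random. That check does not cover tables in which many genes change mostly in a single direction. The difference between knockdowns added the squared standard errors of both, so the control error counts in each. Genes not tested by the authors were left out of tests. Named genes are those changed in either comparison at 1 FPKM or more, the most abundant of each family, the 4 smallest p per direction in pathway lists, and others where a count needed them. The members and lists were chosen with earlier results of these data known. Alternatives varied scaling, thresholds, filters and pseudocounts.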

Additional observations from a re-analysis of the deposited data

How the results depend on the processing

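Scaling had the largest effect. In HDAC2 knockdown the authors' deposited table called 22 guidance genes higher and 1 lower, and centring on the median gene or on upper quartiles gave 12 higher and 3 lower each. At an adjusted p under 0.01 in place of 0.05, the 3 lower became 1. The median log2 fold change of the tested guidance genes was 0.14 in HDAC2 and 0.38 in Sp3 knockdown with centring, and 0.45 and 0.24 without it, an alternative added after seeing the data. A minimum of 1.5-fold left 14 of 24 higher and 5 of 8 lower calls in Sp3 knockdown. Differences between knockdowns numbered 4 higher in HDAC2 and 10 higher in Sp3 knockdown with centring, and 13 and 3 without it. The other 47 alternative counts and medians stayed within 1.5 times the reported count or within the genes' median standard error of the reported median. Without centring, 36 of 45 values of single named genes moved by more than 1 standard error, as did 1 with a pseudocount of 0.1, 6 with a pseudocount of 1 and 0 with centring on upper quartiles. None of these values changed sign. No paired analysis was possible because the tables hold 1 value per group, and for the same reason no replicate could be left out. Depth per library is unknown, so no counting error can be set beside low values such as that of Plxnb3 in control.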
